A study of Rattus norvegicus and synthetic construct with 4 samples.

Results

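The elements described here are human islet CAGE elements at the promoters of nuclear genes that encode subunits of respiratory complexes II to V, together with the gene of the ATP synthase inhibitor. An element was taken when its midpoint lay within 2 kb of the start position listed for a gene in the human genome build hg19. The rule used positions only, but it was applied to elements of the count table. In that table every barcode had at least 10 DNA counts and 1 RNA count. The rule found 29 of its 3378 elements, at 23 of the 37 genes listed. Of these genes, 17 had 1 element and 6 had 2. COX6C, ATP5E and ATP5O had an element that was paired with a barcode but is not in the count table, as did COX5B and ATP5J besides their counted elements. SDHA, UQCRC1, UQCRFS1, CYC1, UQCR11, COX4I1, COX5A, ATP5A1, ATP5D, ATP5G3 and ATP5I had no element within 2 kb that was paired with a barcode. These genes were therefore not analysed here. The start positions are listed to the kilobase and without a strand, so the place of an element relative to the exact start of transcription was not used here.

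The measurements come from STARR-seq, a reporter assay in which the RNA made from a plasmid reports the activity of the candidate sequence it carries. Whether an element acted as a promoter or as an enhancer was not tested. Each plasmid also bears a random barcode of 16 bases, so that every barcode of an element is a separately made plasmid. Plasmids with elements of 198 bp, 10 ug per replicate, were electroporated into 25000000 cells of INS1 832/13, a rat insulinoma line used as a model of the pancreatic beta cell. After 24 h RNA was taken from 3 biological replicates, as labelled, and the input plasmid gave 1 DNA library as reference. The human sequences were thus read by the transcription factors of a rat tumour line, on plasmids and outside their chromosomes.

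Respiratory complexes sit in the inner mitochondrial membrane. Succinate dehydrogenase (complex II) passes electrons from the citrate cycle to ubiquinone, complex III moves them from ubiquinol to cytochrome c, and cytochrome c oxidase (complex IV) hands them to oxygen. ATP synthase (complex V) uses the proton gradient that complexes III and IV help to build. In beta cells the ATP made in this way links glucose metabolism to insulin release. Nuclear genes of the chain are known for promoters with sites of NRF1, of the ETS factor GABPA (also called NRF2) and of YY1.

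The barcodes below are those with the most and the fewest RNA counts for the 4 elements that passed the test of activity and for 2 elements with low output, and they show what a single plasmid contributes. They are written as in the count table, 5' to 3'. A barcode has no part that was singled out, so none of its letters is in capitals.

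UQCRQ, most RNA: atttaagacttcttca
UQCRQ, fewest RNA: tcaattaacatataaa
COX6B1, most RNA: ctgtactaaccgtgga
COX6B1, fewest RNA: ggctaaatttatgatc
COX6A1, most RNA: cagctgctgtttgctc
COX6A1, fewest RNA: cttggtgtatctcgtg
ATP5J active element, most RNA: ttaattttcttggtta
ATP5J active element, fewest RNA: tagtcgttcttgataa
ATP5J neighbouring element, most RNA: caaacagtatttgagc
ATP5J neighbouring element, fewest RNA: tgttaccaggtttcca
ATP5L, most RNA: gagctgattactttgc
ATP5L, fewest RNA: tcatccattcgttgcc

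The UQCRQ plasmid with the most RNA had 99 DNA counts and 70, 126 and 88 RNA counts in replicates 1, 2 and 3. The UQCRQ plasmid with the fewest had 12 DNA counts and 14, 0 and 0 RNA counts. Its raw RNA count, summed over replicates, was 1.17 per DNA count. The ATP5L plasmid with the most RNA was at 0.774, with 31 DNA counts and 19, 3 and 2 RNA counts. The fewest RNA counts did not mean the lowest output per DNA count. Among UQCRQ plasmids the lowest RNA per DNA count was 0.571, so the ranges of UQCRQ and ATP5L overlap. The ATP5L plasmid with the fewest had 28 DNA counts and 1, 0 and 0 RNA counts. For COX6B1, the plasmid with the most RNA had 43 DNA counts and 60, 85 and 56 RNA counts, and that with the fewest had 23 and 4, 0 and 15. Their counterparts in COX6A1 had 54 DNA counts with 64, 44 and 35 RNA counts, and 15 DNA counts with 0, 2 and 0. The top plasmid of the active ATP5J element had 81 DNA counts and 36, 56 and 46 RNA counts, while that of the neighbouring element had 58 DNA counts and 4, 23 and 29. The plasmids with the fewest RNA counts had 14 DNA counts with 0, 0 and 1 in the active element and 32 with 0, 1 and 0 in its neighbour. Plasmids of 1 element thus spread widely, and the element values below pool all of them.

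Totals were 1079728 counts for the plasmid DNA and 211117, 197554 and 218571 counts for RNA replicates 1, 2 and 3. The 29 elements took 1.12% of the DNA counts and 1.99, 1.95 and 2.03% of the RNA counts. They had between 2 and 61 barcodes, with a median of 10 against 6 over all 3378 elements. PCR reads without a stated molecular identifier are not independent molecules, so counts per plasmid overstate the precision. Activity is given as RNA/DNA after TMM normalization (edgeR's scaling between libraries), where 1 is the centre of the library. It is an activity relative to the other elements and not to a silent control sequence.

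A few elements at respiratory promoters had reporter output well above the centre of the library. UQCRQ, COX6B1, COX6A1 and 1 of the 2 ATP5J elements, 4 of 29 (13.8%), passed edgeR's quasi-likelihood test above the centre, with p adjusted by Benjamini-Hochberg over all elements and a threshold of 0.05. In the whole library 8.88% did. These 4 held 33.2% of the plasmid DNA counts of the 29 elements and 68.9% ± 1.51 (SD, n = 3) of their RNA counts. They were called from these same counts, so the larger RNA share follows from the call. The other 25 had a median log2 RNA/DNA of 0.17, with a range from -1.50 to 1.94. No respiratory element passed below the centre, by edgeR (background 0.00%), DESeq2 (0 of 3378) or limma-voom (136 of 3378, 4.03%). At an unadjusted p under 0.05, 7 of 29 were above (24.1%, background 13.5%) and 0 below (background 0.770%).

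Over the 29 elements the median log2 RNA/DNA was 0.43, against -0.03 over all elements. By replicate the medians were 0.26, 0.61 and 0.37, and those over all elements were -0.11, -0.08 and -0.12. All 3 RNA libraries lay above the plasmid DNA for 14 elements (48.3%, background 25.8%) and below it for 6 (20.7%, background 29.4%). These sides, and those given below, are relative to the TMM centre. Scaling by library totals moved the median of all elements by -0.73 on the log2 scale. On that scale 8 respiratory elements (27.6%, 16.1% of all) lay above in all libraries, and 14 (48.3%, 52.3% of all) below. The 8 were the 4 called elements, SDHC, UQCRB and the higher-coordinate elements of SDHD and ATP5F1. In the library the share called was larger for elements with more barcodes, and the respiratory elements had more barcodes than the library at large. Among elements with at least 10 barcodes, 4 of 15 respiratory elements were called against 16.0% of the library. Under 10 barcodes 0 of 14 were called, against 5.23%. With at least 20 barcodes 3 of 6 were called, against 22.0%. Every counted barcode had at least 1 RNA count, so the number of barcodes is partly an outcome of the assay. Groups by barcode number are therefore not independent of RNA output. The comparison of the set with the library was not tested, and these shares describe it only.

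Complex II is the only respiratory complex encoded wholly in the nucleus. Its 4 elements had a median log2 RNA/DNA of 1.20, and none was called. SDHC, which encodes a membrane anchor of the complex, had RNA/DNA of 2.78, 1.90 and 3.45 from 9 barcodes on chromosome 1 from 161284096 to 161284293. Its log2 ratio was 1.44 ± 0.78 (SE; adjusted p = 0.44 in edgeR's quasi-likelihood test). SDHD encodes the other anchor and shares a divergent promoter region with TIMM8B, a gene for a mitochondrial import chaperone. Both SDHD elements were above the DNA in every replicate. The element on chromosome 11 from 111957380 to 111957577 had 2.02, 1.14 and 2.71 from 15 barcodes, and that from 111957514 to 111957711 had 3.01, 2.80 and 3.09 from 5. Adjusted p was 0.60 and 0.347 (edgeR). SDHB, the iron-sulphur subunit, had replicates on both sides of the DNA, at 0.357, 0.107 and 1.39 from 3 barcodes (chromosome 1 from 17380452 to 17380649).

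Complex III held the most active respiratory element. UQCRQ encodes a small subunit that lies close to cytochrome b. Its element on chromosome 5 from 132202266 to 132202463 had 1257 DNA counts over 45 barcodes and 1104, 1112 and 1291 RNA counts. RNA/DNA was 7.52, 7.93 and 8.55 times the centre, a mean of 8.0 ± 0.519 (SD, n = 3). The replicates thus lay close together and far from 1. Its fitted log2 ratio of 3.00 ± 0.25 (SE) had edgeR adjusted p = 1.08e-16. It ranked 71 of the 3378 elements by this ratio, and 9 of the 423 with at least 20 barcodes.

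The other complex III elements had lower ratios, and none was called. UQCRB, which encodes a ubiquinone-binding protein, had 1.81, 1.70 and 2.92 from 16 barcodes on chromosome 8 from 97247707 to 97247904 (log2 1.10 ± 0.49 SE; adjusted p = 0.221 in edgeR's test). UQCRC2, a core protein of the complex, had 2.10, 1.71 and 1.29 from 24 barcodes on chromosome 16 from 21964571 to 21964768. Both were above the DNA in every replicate without passing the test. UQCRH, the acidic hinge protein that assists the docking of cytochrome c, was below the DNA in every replicate with both of its elements. That on chromosome 1 from 46769270 to 46769467 had 0.341, 0.728 and 0.835 from 18 barcodes, and that from 46769000 to 46769197 had 0.922, 0.0567 and 0.422 from 7. Neither passed the test (adjusted p = 0.885 and 0.953, edgeR). UQCR10, a small subunit of the complex, was near the centre with both elements on chromosome 22. The element from 30163285 to 30163482 had 1.06, 1.62 and 1.05 from 24 barcodes, and that from 30162867 to 30163064 had 1.10, 0.714 and 0.471 from 13. Over the 7 complex III elements the median log2 RNA/DNA was 0.31.

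Complex IV contributed 5 elements with a median log2 RNA/DNA of 1.81, and 2 of them were called. That median is the value of COX8A, an element with 3 barcodes that was not called. COX6B1 encodes a subunit on the side of the intermembrane space that faces cytochrome c. Its element on chromosome 19 from 36139123 to 36139320 had 683 DNA counts over 21 barcodes and 512, 520 and 709 RNA counts. RNA/DNA was 6.42, 6.82 and 8.64 times the centre, a mean of 7.30 ± 1.18 (SD, n = 3). The log2 ratio was 2.87 ± 0.31 (SE; adjusted p = 5.84e-12, edgeR's quasi-likelihood test). All replicates were far above the DNA, and replicate 3 was the highest. COX6A1 encodes the broadly expressed form of a regulatory subunit. Its element on chromosome 12 from 120875834 to 120876031 had 462 DNA counts over 15 barcodes and 249, 287 and 241 RNA counts. RNA/DNA was 4.62, 5.57 and 4.34 times the centre, a mean of 4.84 ± 0.641 (SD, n = 3), with a log2 ratio of 2.27 ± 0.41 (SE; adjusted p = 1.09e-05, edgeR).

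COX8A, a small membrane subunit, had 4.88, 1.63 and 3.99 from 3 barcodes on chromosome 11 from 63742018 to 63742215. A single plasmid supplied 65.1% of its RNA counts, and adjusted p was 0.491 (edgeR). COX7C, another small membrane subunit, was below the DNA in every replicate at 0.678, 0.896 and 0.729 from 9 barcodes on chromosome 5 from 85913684 to 85913881. Its log2 ratio was -0.38 ± 1.26 (SE), with adjusted p = 0.983 (edgeR), so its level is poorly determined. A single plasmid supplied 59.4% of its RNA counts. With the strongest barcode of each element left out, the log2 ratio of COX7C was -1.17. COX5B, a subunit that binds zinc, had 0.235, 1.47 and 0.342 from 2 barcodes on chromosome 2 from 98262395 to 98262592, and its replicates lay on both sides of the DNA. The genes of cytochrome c oxidase thus ranged from a log2 ratio of -0.55 for COX5B to 2.87 for COX6B1.

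Complex V had 13 elements, with a median log2 RNA/DNA of 0.17, and 1 was called. ATP5J encodes coupling factor 6 of the peripheral stalk, and its promoter is shared head to head with GABPA, the gene of the ETS factor named above. The element on chromosome 21 from 27107232 to 27107429 had 1616 DNA counts over 61 barcodes and 998, 807 and 777 RNA counts. RNA/DNA was 5.29, 4.47 and 4.0 times the centre, a mean of 4.59 ± 0.651 (SD, n = 3). The log2 ratio was 2.20 ± 0.26 (SE; adjusted p = 1.25e-10, edgeR's quasi-likelihood test). This was the element with the most barcodes among the 29.

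The remaining stalk and membrane genes of ATP synthase were not called. ATP5F1, which encodes subunit b of the peripheral stalk, came nearest. Its element on chromosome 1 from 111992001 to 111992198 had 4.41, 2.04 and 5.03 from 4 barcodes (log2 1.94 ± 0.70 SE; adjusted p = 0.079, edgeR). A single plasmid supplied 57.4% of the RNA counts of this element. ATP5H, subunit d of the same stalk, had 2.04, 2.30 and 0.327 from 10 barcodes on chromosome 17 from 73042955 to 73043152, and only its replicate 3 was below the DNA. ATP5G1 and ATP5G2 both encode subunit c, the protein of the rotor ring, with the same mature sequence. ATP5G2 had 1.54, 1.41 and 1.10 from 30 barcodes on chromosome 12 from 54069764 to 54069961. ATP5G1 had 0.560, 0.419 and 0.0778 from 4 barcodes on chromosome 17 from 46970072 to 46970269, the lowest fitted ratio of the set (log2 -1.50 ± 1.75 SE). The replicates of these elements did not overlap, but an SE of this size leaves the level of ATP5G1 poorly determined. ATP5L, subunit g, was below the DNA in every replicate at 0.734, 0.192 and 0.327 from 8 barcodes on chromosome 11 from 118272234 to 118272431 (log2 -1.26 ± 1.40 SE). ATP5J2, subunit f, had 0.101, 1.79 and 2.16 from 4 barcodes on chromosome 7 from 99063676 to 99063873.

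The catalytic head of ATP synthase was represented by ATP5B (subunit beta) and ATP5C1 (subunit gamma, the rotating shaft). ATP5B had replicates on both sides of the DNA, at 0.849, 0.888 and 1.26 from 9 barcodes on chromosome 12 from 57039665 to 57039862. The SE of its log2 ratio was 1.17, and a single plasmid supplied 46.9% of its RNA counts. The level of ATP5B is thus poorly determined. ATP5C1 had an element at 0.879, 1.23 and 1.28 from 10 barcodes (chromosome 10 from 7829826 to 7830023). Its other element, from 7830026 to 7830223, does not overlap it and was at 1.16, 2.92 and 6.27 from 2 barcodes. Of the RNA counts of that element 60.2% came from a single plasmid. ATPIF1 encodes the protein that inhibits ATP synthase when it runs backwards. It was below the DNA in every replicate, at 0.695, 0.630 and 0.360 from 15 barcodes on chromosome 1 from 28562587 to 28562784 (log2 -0.83 ± 0.83 SE; adjusted p = 0.849, edgeR).

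For 6 genes 2 elements could be compared at the same promoter. The difference was taken within each RNA library as log2 RNA/DNA (pseudocount 0.5) of the element at the higher coordinate minus that at the lower coordinate. An exact two-sided sign-flip permutation test over 3 libraries cannot go below p = 0.25, so no pair could pass a threshold of 0.05. At ATP5J the elements share 86 bp, and the differences were 4.48, 2.31 and 1.42 on the log2 scale, a mean of 2.74 ± 1.57 (SD, n = 3; exact p = 0.25). The lower-coordinate element, from 27107120 to 27107317, had RNA/DNA of 0.225, 0.891 and 1.49 from 11 barcodes, so every replicate of the active neighbour exceeded every replicate of this element. Without replicate 1 the mean difference was 1.87.

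At ATP5F1 the elements are 249 bp apart in start and do not overlap. The differences were 0.83, 2.88 and 3.73, a mean of 2.48 ± 1.49 (SD, n = 3; exact p = 0.25). The weaker element, from 111991752 to 111991949, had 2.47, 0.258 and 0.360 from 6 barcodes, and a single plasmid supplied 65.3% of its RNA counts. That plasmid was read mainly in replicate 1, and without replicate 1 the mean difference was 3.31. The stronger element also leaned on a single plasmid, with 57.4% of its RNA counts. At ATP5C1 the differences were 0.42, 1.25 and 2.28 (mean 1.32 ± 0.93 SD, n = 3; exact p = 0.25), and without replicate 3 the mean was 0.83. SDHD gave 0.58, 1.29 and 0.19 (mean 0.68 ± 0.56), for elements that share 64 bp, and without replicate 2 the mean was 0.38.

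At UQCR10 and UQCRH the differences lay on both sides of 0. UQCR10 differed by -0.06, 1.17 and 1.14 (exact p = 0.5) between elements 418 bp apart. UQCRH differed by -1.44, 3.11 and 0.91 (exact p = 0.75), with a mean of 0.86 that became -0.27 without replicate 2. The lower-coordinate UQCRH element rested on 17, 1 and 8 RNA counts. The mean difference was above 0 for all 6 genes, in every replicate for 4 of them. This count was not made for other pairs of the library, so no pattern is read from it. Coordinates run the same way on the chromosome whatever the strand of the gene, and the pairs were not compared by strand.

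The plasmids behind these values were also counted singly. Few barcodes had RNA counts from 5 to 8, and the cause is not stated in the labels. In replicates 1, 2 and 3, the 29 elements had 25, 28 and 27 barcodes at exactly 4 counts and 0, 0 and 1 at exactly 5. There were 1, 2 and 0 barcodes at 6 counts, 2, 1 and 0 at 7, and 1, 1 and 2 at 8. A barcode with at least 5 counts is called high here. Of the 403 respiratory barcodes 37.5, 36.5 and 38.7% were high in replicates 1, 2 and 3, against 22.7, 22.1 and 23.4% of all 35153 barcodes. In all 3 replicates 71 were high (17.6%, 6.43% of all). Of the 142 barcodes on the 4 called elements, 67.6, 66.9 and 69.0% were high. Of the 261 barcodes on the other respiratory elements, 21.1, 19.9 and 22.2% were, beside 16.7, 16.1 and 16.9% of the 29488 barcodes on all elements that were not called. Barcodes high in all 3 replicates numbered 61 (43.0%) on the called elements and 10 (3.83%) on the others, beside 2.03% over all elements that were not called. The call used the summed counts of these same barcodes. The higher shares on called elements follow from it and add no separate evidence.

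For UQCRQ, 34, 35 and 36 of 45 barcodes were high, 26 of them in all replicates, and the strongest plasmid supplied 8.10% of the RNA counts. COX6B1 had 16, 16 and 18 high barcodes of 21 and COX6A1 had 9, 11 and 11 of 15, with strongest plasmids at 11.5 and 18.4%. The active ATP5J element had 37, 33 and 33 of 61, and its strongest plasmid held 5.34%. The outputs of the called elements were thus spread over many plasmids. In the neighbouring ATP5J element 0, 1 and 3 of 11 barcodes were high and the strongest held 53.8%. ATP5G1 had no high barcode in any replicate. Raw RNA counts over the 3 libraries per DNA count ran from 0.571 to 10.8 among the barcodes of UQCRQ, with a median of 2.11, and from 0.0345 to 0.774 among those of ATP5L, with a median of 0.0894.

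The distance limit fell in a gap. The element farthest inside it was the more active ATP5F1 element, whose midpoint was 1099 bp from the listed position. Just outside, an element 2473 bp from the ATPIF1 position had RNA/DNA of 1.10, 0.864 and 1.14 from 8 barcodes (chromosome 1 from 28559429 to 28559626).

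The inserted human sequences were not used here. For context, the rat genes of the same names carry promoters that the host cells themselves read, and RefSeq sequences of these (build GRCr8, 250 bases before to 50 after the gene start) were found for 31 of the 37 genes. These letters were not on the plasmids, and the reporter values say nothing about them. Exact matches were sought on both strands. Of the 31 genes 20 had a counted element, so the shares also cover genes without a reporter value. The ETS letters CCGGAAG were in 12 of 31 rat promoters (38.7%) against 8.75% of the 33469 promoters in the table. The YY1 letters AAGATGG were in 10 (32.3% against 7.01%), and AAGGTCA, bound by the oestrogen-related receptors, in 7 (22.6% against 4.61%). The NRF1 letters GCGCATGCG were in 5 (16.1% against 1.52%) and the shorter TGCGCA, which can overlap them, in 8 (25.8% against 7.24%). SP1 letters GGGCGG were in 11 (35.5% against 33.1%) and the NFY letters CCAAT in 10 (32.3% against 37.5%). TGACGTCA (CRE) was in 2 (6.45% against 1.83%), CACGTG (E-box) in 4 (12.9% against 6.42%) and the TATA letters TATAAA in 2 (6.45% against 14.2%). The share of all promoters includes noncoding genes; among the 21851 protein-coding ones it was 10.7% for ETS, 7.29% for YY1 and 41.8% for SP1, which is above the 35.5% of the respiratory genes.

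The bases before the start of the rat genes for called members are printed to show where these letters lie, with matches in capitals; Cox6a1 had no entry. Uqcrq (GRCr8 chr10:38089979-38090228, minus strand) has the oestrogen-related receptor letters and the ETS letters. Cox6b1 (GRCr8 chr1:95009853-95010102, minus strand) has the NFY and the YY1 letters, both on the reverse strand. Atp5pf, the rat name of ATP5J (GRCr8 chr11:37375102-37375351, minus strand), has the YY1 letters followed by the ETS letters.

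Uqcrq: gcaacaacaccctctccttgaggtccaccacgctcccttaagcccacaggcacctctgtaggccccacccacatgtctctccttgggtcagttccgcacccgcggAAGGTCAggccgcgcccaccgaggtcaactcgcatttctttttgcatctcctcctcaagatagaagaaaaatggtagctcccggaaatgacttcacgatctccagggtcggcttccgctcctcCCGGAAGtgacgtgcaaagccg
Cox6b1: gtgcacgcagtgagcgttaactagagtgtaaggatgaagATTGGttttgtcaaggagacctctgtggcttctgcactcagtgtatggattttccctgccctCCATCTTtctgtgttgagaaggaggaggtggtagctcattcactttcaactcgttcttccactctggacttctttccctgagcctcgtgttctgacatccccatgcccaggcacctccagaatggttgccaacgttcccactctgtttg
Atp5pf: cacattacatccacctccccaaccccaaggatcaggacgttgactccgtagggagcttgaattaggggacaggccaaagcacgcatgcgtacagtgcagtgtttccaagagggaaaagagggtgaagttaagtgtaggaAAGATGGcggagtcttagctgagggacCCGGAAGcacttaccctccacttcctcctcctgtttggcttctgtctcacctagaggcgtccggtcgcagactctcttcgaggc

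Genes without a called element had matches as well. The rat promoter of Atp5mg, the counterpart of ATP5L, held the ETS, NRF1, oestrogen-related receptor, E-box and TATA letters. The rat promoter of Atp5f1c, the counterpart of ATP5C1, held none of the letters sought. A link between these letters and the output of the human elements was not tested.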

How the data were processed

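Barcode counts of 3 RNA libraries and 1 plasmid DNA library were analysed. The authors deposited barcode counts, raw by their values (whole numbers with unequal totals), and a barcode-to-element table. Coordinates are hg19, the build in the submitters' processing notes. Read matching and filtering of the count table (not given in the sources used here) precede these values. In the values, every barcode had at least 10 DNA counts and 1 RNA count, so plasmids without RNA were not analysed here, which can raise the ratio of an element. Starts are counted from 1.

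Counts were summed per element and tested as RNA against DNA over all 3378 elements with edgeR 4.0.16 (R 4.3.3): TMM, quasi-likelihood fit, Benjamini-Hochberg adjustment, threshold 0.05. TMM gave the DNA a factor of 1.47 and RNA replicates 1, 2 and 3 factors of 0.876, 0.895 and 0.870. SE is the absolute log2 ratio over the square root of F. Ratios share 1 DNA library, so SDs leave out its error. The p-values rest on the spread between the RNA libraries, with dispersion estimated jointly over all elements. That spread does not separate electroporation from library preparation. The procedure was tested on simulated data. Python 3.11.15, pandas 2.3.3 and numpy 2.4.6 were used, with DESeq2 1.42.0 and limma 3.58.1 for alternatives: normalization, low counts, strongest barcode, filters, window and left-out replicates.

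The members, gene groups and motif letters were chosen with earlier results of these data known. Named elements are those called, the 8 highest and 8 lowest with at least 5 barcodes, and both elements of a shared promoter; the others were described for completeness, after their values were seen. The printed barcodes and rat promoters were chosen after the data were examined.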

Additional observations from a re-analysis of the deposited data

How the results depend on the processing

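The 4 called elements were called under every alternative run: library totals or DESeq2 size factors in place of TMM, removal of RNA counts of 1 to 4 per barcode, the strongest barcode of each element left out, each RNA replicate left out, DESeq2, limma-voom, at least 5 barcodes and at least 50 DNA counts. For 7 of these settings and for a median over barcodes, their log2 ratios were compared as well. The ratios ranged from 2.26 to 3.86 for UQCRQ, 2.13 to 3.84 for COX6B1, 1.54 to 3.04 for COX6A1 and 1.46 to 2.74 for ATP5J, the highest from the median over barcodes, which has no test. DESeq2, limma-voom and the filters on barcodes and DNA counts are not in these ranges. In the library the number called fell from 300 to 169 with library totals, 193 without replicate 2 and 115 with these low counts removed. DESeq2 called 5 of 29 (17.2%, 12.4% of all), adding the ATP5F1 element at the higher coordinate, and left 6 (20.7%, 46.5% of all) without an adjusted p. limma-voom called 9 of 29 (31.0%, 15.1% of all), adding that element, COX8A, SDHC, the higher-coordinate SDHD element and UQCRB. No setting called a respiratory element below the centre; of all elements, limma-voom called 4.03% below, library totals 1.48%, removal of low counts 0.207%, the fit without replicate 1 0.0888%, and the other settings none. The median log2 ratio of the 29 moved from 0.43 to -0.30 with library totals and to -0.35 with these low counts removed, where the median of all elements moved to -0.77 and -0.85. Without 1 replicate it was 0.24 to 0.45, the lowest without replicate 2. Its distance from the median of all elements lay between 0.30 and 0.77 under these settings. The mean UQCRH difference was -0.27 to 2.01 without 1 replicate, and 0.06 with a pseudocount of 5. The ATP5J mean difference was above that of ATP5F1 (2.74 and 2.48) but below it without replicate 1 (1.87 and 3.31) and with low counts removed (4.35 and 5.07). The causes were not tested. Among elements with under 10 barcodes, edgeR called 117 of 2235 (5.23%), against 183 of 1143 (16.0%) of those with 10 or more. The number of counted barcodes depends in part on RNA output. No paired analysis was possible because the 1 DNA library shares no replicate number with 3 RNA libraries.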
